A study of Mus musculus with 16 samples.

Results

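Mural cells are the contractile and supporting cells of the vessel wall, and 87 barcodes with their markers stood among the barcodes that the deposited cell table of this muscle stem cell (MuSC) series leaves out. They were chosen from the counts. A barcode was taken where it was absent from the table, had at most 10% of its unique molecular identifiers (UMIs, counted molecules) on mitochondrial genes and at most 5000 genes detected, and had at least 1 UMI of at least 3 of the 6 genes Rgs5, Acta2, Myh11, Tagln, Pdgfrb and Notch3. The matrix held 22699 barcodes, of which 21555 were in the table and 1144 were not. Of the latter, 393 were over the mitochondrial limit, 11 more were over the gene limit, and 740 were within both. The 87 mural cells were thus a part of 740, and the other 653 are called the other left-out cells here.

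The study compared young and aged mouse MuSCs by single-cell RNA sequencing of 16 libraries, 2 for each of 8 conditions. All animals were male C57Bl/6J mice of the H2B-GFP+/-;rtTA+/- genotype that had received doxycycline from E10.5 to E16.5 of embryonic life, so that cells dividing little since then keep the green histone label. They were 3 months old (young) or 20 months old (aged), with 2 mice of each age. Cells negative for CD31, CD45 and Sca1 and positive for VCAM and α7-integrin were sorted into label-retaining cells (LRC) and cells without the label (nonLRC). Each was profiled at once (0 h, quiescent) or after 18 h in culture on sarcoma-derived matrix in DMEM with 10% horse serum (activated). Activated cells were sorted a second time with propidium iodide to remove dead cells. LRC and nonLRC cells and both times came from the same mice, and the files give each barcode a library but no mouse. The pair of libraries of a condition is named a and b here, in the order of their numbers in the files.

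Mural cells comprise the pericytes of capillaries, which share the basement membrane with the endothelium, and the vascular smooth muscle cells of arterioles and larger vessels. Endothelial cells recruit them through PDGF-B, which binds the receptor encoded by Pdgfrb, and Notch3 is the main Notch receptor of the lineage. Smooth muscle cells contract through myosin heavy chain 11 (Myh11), α-smooth muscle actin (Acta2) and their regulators, while Rgs5, a brake on G-protein signalling, is a classical pericyte marker. In muscle tissue they are known to lie close to the MuSCs.

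All 87 mural cells were in quiescent libraries, where they made up 0.766% of 11359 barcodes within the limits and 16.3% of the 533 left-out cells. In the young LRC libraries there were 20 cells in library a and 1 in library b. The young nonLRC libraries held 10 and 5, the aged LRC libraries 15 and 7, and the aged nonLRC libraries 28 and 1. Library a held more of them than library b in every quiescent condition, and only the 4 a libraries reached 10 cells.

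As a share of barcodes, mural cells were most frequent in aged LRC library a, at 2.75% (95% exact interval 1.55 to 4.49). They made up 1.36% (0.905 to 1.96) of aged nonLRC library a, 0.924% (0.565 to 1.42) of young LRC library a and 0.461% (0.222 to 0.847) of young nonLRC library a. In the b libraries the share was 1.11% (0.449 to 2.28) for aged LRC, 0.124% (0.0031 to 0.689) for aged nonLRC, 0.0665% (0.0017 to 0.370) for young LRC and 0.337% (0.109 to 0.784) for young nonLRC. The aged and young quiescent libraries overlapped, as did the LRC and nonLRC ones. These intervals, by the Clopper-Pearson method, cover counting error only.

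**Figure D1:**
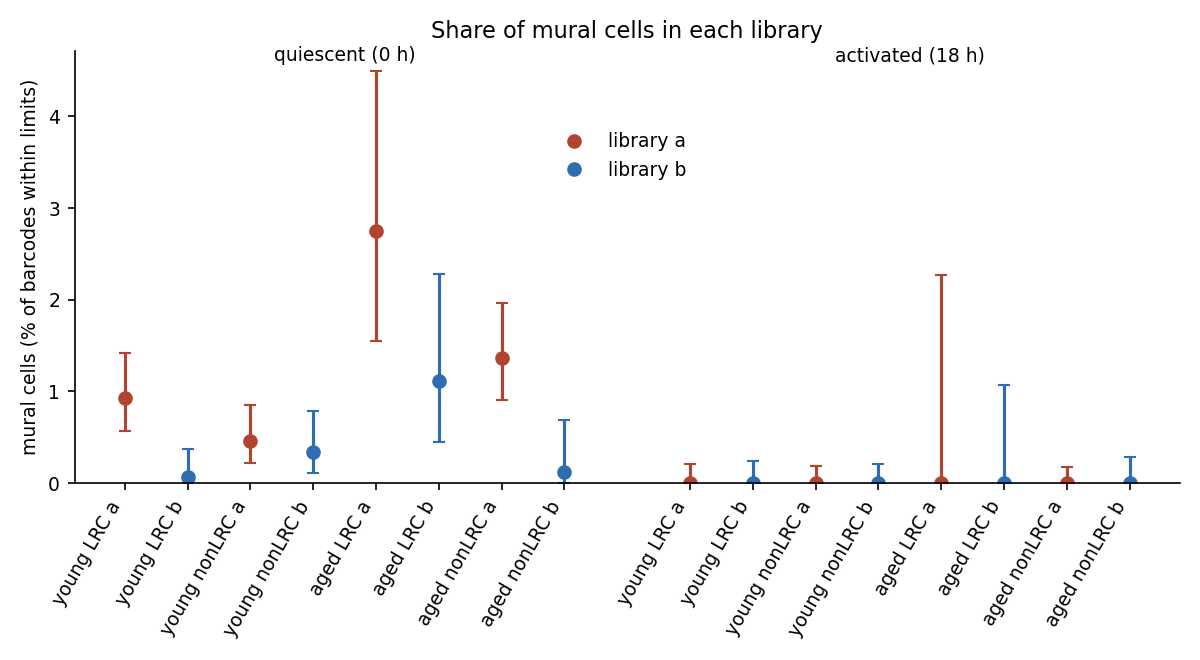
Mural cells as a percentage of the barcodes within the limits (y axis) in each of the 16 libraries (x axis), with 95% Clopper-Pearson intervals and with libraries a and b in different colours. The 8 quiescent libraries lie between 0.0665% and 2.75%, and the 8 activated libraries are all at 0.

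None of 10936 activated barcodes was a mural cell, and a limit of 3 counts puts the share at no more than 0.0274%. There were 207 left-out cells in the activated libraries, so the 0 also holds against that denominator, where the limit is 1.45%. Over libraries the share was 0.892% ± 0.884 (SD, n = 8) at 0 h and 0% at 18 h. The difference of -0.892 percentage points was at the smallest p that the exact 2-sided permutation test within age and label could give (p = 0.00154, 0.00463 after adjustment over the 3 share comparisons). Both times and both labels came from the same mice. The p-values and SDs of all share comparisons thus measure the spread between libraries and not between animals. All 8 quiescent libraries were above all 8 activated ones in observed share. With 3 counts the limit was 1.86% in aged LRC activated library a and 0.877% in aged LRC activated library b, above several quiescent shares. It was at most 0.228% in the other activated libraries. Time in culture, plating and the second sort went together in this design and cannot be told apart.

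Depth differed between the times, with a median of 3072 UMIs per table cell at 0 h and 8316 at 18 h. Thinning every cell to 2000 UMIs left 53 mural cells among the 61 deep enough and set aside 26. The mean share at 0 h was then 0.718%. Thinning can only remove markers, so the 0% at 18 h could not change. Traces of the markers were present in the activated left-out cells, where Rgs5 had a UMI in 5 cells, Acta2 in 15 and Myh11 in 0 of 207.

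The share did not differ detectably with age or label. It was 0.668% ± 1.01 (SD, n = 8) over aged and 0.224% ± 0.335 (SD, n = 8) over young libraries (exact permutation test, 2-sided, p = 0.278, adjusted p = 0.389). It was 0.607% ± 0.979 (SD, n = 8) over LRC and 0.285% ± 0.469 (SD, n = 8) over nonLRC libraries (exact permutation test, p = 0.389, adjusted p = 0.389). The activated libraries, all at 0, lowered these means and added nothing to the p-values, of which none below 0.0556 was possible. Over the quiescent libraries alone the share was 1.34% ± 1.08 (SD, n = 4) aged and 0.447% ± 0.358 (SD, n = 4) young, and 1.21% ± 1.12 (SD, n = 4) LRC and 0.571% ± 0.544 (SD, n = 4) nonLRC. Without aged LRC library a the mean differences fell from 0.445 to 0.241 points for age and from 0.321 to 0.117 points for label.

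A further difference ran between the libraries of a pair. The 4 quiescent a libraries carried hemoglobin RNA in the table cells, at 18.0 to 86.8 CPM (UMIs per 1000000 UMIs of the summed cells), and the 4 quiescent b libraries at most 0.555 CPM. The a libraries held 73 of the 87 mural cells (1.05% of 6937 barcodes) and the b libraries 14 (0.317% of 4422). All left-out cells together showed the same order, at 6.34% and 2.10% of barcodes. Within the a libraries the aged share exceeded the young one by 1.36 percentage points, and within the b libraries by 0.418 (exact permutation tests, p = 0.5 and 1, with 0.5 the smallest p possible). The LRC share exceeded the nonLRC one by 0.925 and 0.360 points (exact permutation tests, p = 0.5 and 1). What the hemoglobin has to do with the number of mural cells was not tested.

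The mural cells had a median of 2768 UMIs (1027 to 14591), 1206 genes and a mitochondrial share of 3.70%. Together they carried 285733 UMIs. The other left-out quiescent cells had a median of 2052 UMIs (446 cells) and the quiescent table cells 3072 (10826 cells). Per library the mural cells summed to 41401 UMIs in aged LRC a, 79166 in aged nonLRC a, 74887 in young LRC a and 44055 in young nonLRC a. The b libraries summed to 19684, 4677, 4369 and 17494 in the same order.

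Markers of other cell types were present in some of the 87. Of these, 15 had at least 3 of 10 endothelial markers, and 8 of the 15 came from young LRC library a, which held 20 mural cells. The rest were 2 of 10 in young nonLRC a, 2 of 15 in aged LRC a, 2 of 28 in aged nonLRC a and 1 of 1 in aged nonLRC b. The 15 held 96846 of the 285733 mural UMIs. Levels summed over all mural cells and the main age test include them. Their median depth was 5102 UMIs against 2439 in the other 72. The summed level of the endothelial list was 1424 CPM over all mural cells and 334 CPM without the 15, with Flt1, a VEGF receptor, its most abundant gene at 413 and 127 CPM. Cdh5, the endothelial junction cadherin, had no UMI in the 72. Whether these barcodes are 2 cells in 1 droplet was not tested; no doublet caller was run, and the authors removed doublets by the UMI and gene numbers of a cell.

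Markers of other cell types were looked for as well. There were 2 cells that had at least 3 MuSC markers, both among the 15, and 1 of them, with 14591 UMIs, made up 33.1% of the mural UMIs of young nonLRC library a. Pax7, Myf5, Cdh15, Musk and Fgfr4, which mark MuSCs, were at 0 in all 87, as were Sox10, Cdh19, Kcna1, Foxd3 and Erbb3 of the glial list. The immune list was at 0 for 10 of 12 genes and the tendon list for Scx, Thbs4, Comp and Kera. No cell had 3 glial, tendon or immune markers. At least 3 of 12 fibro-adipogenic markers were found in 29 cells (33.3%), in 27.1% of the other left-out quiescent cells and in 24.4% of quiescent table cells. The list summed to 2331 CPM, led by the actin-severing gelsolin (Gsn, 1109 CPM), against 1080 CPM in the table and 14010 CPM in the other left-out cells. The defining fibro-adipogenic gene Pdgfra had 1 UMI in all 87. Finally, 1 cell had 7835 hemoglobin UMIs of its 11262, while the next had 8, and 2 cells shared their 16-base barcode with a barcode of another library, as 797 barcodes of the series did.

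The 6 genes of the rule set the membership, so their levels are a description. Rgs5 (chr1:169655501-169695813 in GRCm38, GENCODE M21) had a UMI in 73 of the 87 cells, Acta2 (chr19:34241090-34255590) in 70 and Myh11 (chr16:14194535-14291372) in 66. Tagln (chr9:45929619-45936058), which encodes the actin-binding transgelin, had one in 65, Notch3 (chr17:32120820-32166852) in 51 and Pdgfrb in 38. Of the 2 markers often used to part pericytes from smooth muscle, Rgs5 and Myh11 were found together in 52 cells, Rgs5 alone in 21 and Myh11 alone in 14. All of Acta2, Myh11 and Tagln were in 51 cells, and 5 cells had none of the 3.

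Summed over the mural cells, Rgs5 stood at 7923 CPM in aged LRC a, 5040 in aged nonLRC a, 6717 in young LRC a and 7627 in young nonLRC a. Acta2 was at 4179, 4964, 3792 and 4131 CPM in the same libraries, and Myh11 at 604, 884, 921 and 704 CPM. Each varied by less than 2-fold over these 4 libraries. In the b libraries of 1 to 7 cells, Rgs5 was at 1626, 0, 4349 and 1944 CPM in the same order and Acta2 at 7265, 10477, 11673 and 7317 CPM, so that Acta2 was above its level in every a library and Rgs5 below. In the quiescent table cells Rgs5 was at 3.92 CPM with a UMI in 1.11% of cells, Myh11 at 0.576 CPM in 0.176% and Pdgfrb at 2.51 CPM in 0.785%. Table cells did carry Acta2 (118 CPM, 17.2% of cells), Tagln (73.8 CPM, 13% of cells) and Notch3 (72.1 CPM, 19.5%). Thus Rgs5, Myh11 and Pdgfrb were rare in the table, and the other 3 rule genes were not.

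The cut at 3 markers fell between 27 left-out cells with exactly 3 (median 2010 UMIs) and 34 with exactly 2 (median 4595.5 UMIs, 32 of them quiescent). Rgs5 was at 8213 CPM just inside and 2674 CPM just outside, and Acta2 at 3268 and 89.5 CPM. Myh11 fell from 416 to 47.7 CPM, Tagln from 1634 to 239 CPM, Pdgfrb from 301 to 35.8 CPM and Notch3 from 215 to 29.8 CPM. The cells just outside were therefore deeper and poorer in all 6 genes. Further in, 26 cells had 4 markers, 26 had 5 and 8 had all 6.

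**Figure D2:**
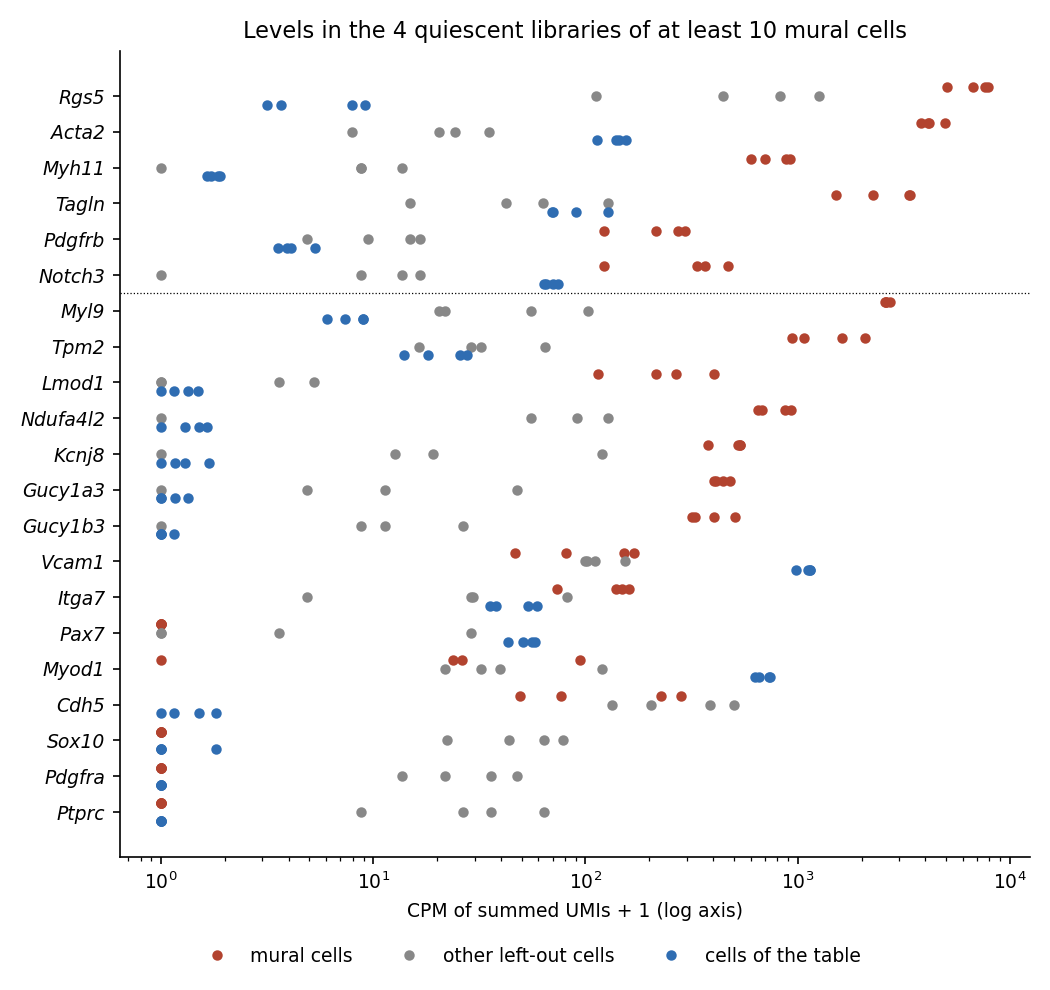
Level of each gene as CPM of summed UMIs + 1 (x axis, log scale) in the 4 quiescent libraries of at least 10 mural cells, 1 point per library and class, for mural cells, other left-out cells and cells of the table. The 6 genes above the dotted line chose the cells, and all 4 mural points of Myl9, Lmod1, Gucy1a3 and Kcnj8 below it also lie to the right of the other classes.

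Beyond the rule, levels were compared without a test, because any gene that goes with the 6 had to differ. A gene was counted as higher where its level was at least 4-fold higher over all quiescent cells and higher in each of the 4 libraries. Genes entered a comparison at a mean of at least 20 CPM in the 2 classes. A gene near 0 in the other class thus entered through its level in mural cells and had to be higher, so the counts below describe the lists and support nothing. Of 4917 genes compared with the table, 538 met this (10.9%), and of 5636 compared with the other left-out cells 157 did (2.79%). The median gene was 0.26 higher on the log2 scale than in the table and 0.11 lower than in the other left-out cells (log2 difference -0.11).

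Genes of the contractile apparatus were higher than in the table for 21 of 26 compared and higher than in the other left-out cells for 14 of 26, with median log2 differences of 3.45 and 2.53. Myl9, the regulatory myosin light chain of smooth muscle, stood at 2609, 2728, 2591 and 2610 CPM in the 4 a libraries, beside 5.06 to 7.97 CPM in their table cells and 19.3 to 102 CPM in their other left-out cells. Tpm2, a tropomyosin, was at 1711 CPM over all mural cells and 35.2 CPM in the other left-out cells. The mural and other libraries did not overlap for either gene. Mylk, the kinase that switches on smooth muscle myosin, was at 710 CPM in mural cells, 5.13 in the table and 39.4 in the other left-out cells. Lmod1, an actin nucleator, was at 273, 0.173 and 1.68 CPM, and Ppp1r14a, an inhibitor of the myosin phosphatase, at 311, 22.4 and 6.71 CPM. Cnn1, the calponin of mature smooth muscle, was at 105 CPM but in only 14 cells, and had 0 UMIs in the other left-out cells. Desmin (Des), shared with skeletal muscle, went the other way against the table, at 332 against 769 CPM.

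Among genes that set vessel tone, 12 of 24 ion channel and cGMP genes entered, of which 11 were higher than in the table and 10 of 12 were higher than in the other left-out cells, with medians of 6.19 and 3.16. Kcnj8 and Abcc9 encode the pore and the sulfonylurea receptor of the vascular ATP-sensitive potassium channel, and were at 430 and 297 CPM. The table cells had 0.576 and 2.65 CPM of them, and the other left-out cells 32.7 and 41.1 CPM. Gucy1a3 and Gucy1b3, the subunits of the nitric oxide receptor guanylate cyclase, were at 402 and 339 CPM in mural cells. Both were at 0.0864 CPM in the table, which is 3 UMIs each. Ednra, an endothelin receptor, had UMIs in 20 mural cells, none in the quiescent table cells and 1 in the other left-out cells.

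Other genes known from mural cells were higher than in the table for 20 of 22 that entered and higher than in the other left-out cells for 15 of 23, from a list of 24. Ndufa4l2, a mitochondrial protein of hypoxic cells, ranged from 652 to 931 CPM over the 4 libraries, against 0 to 0.652 CPM in their table cells. Higd1b was at 217 CPM and had 1 UMI in all quiescent table cells. Ebf1, a transcription factor, had UMIs in 77 of the 87 cells and stood at 1151 CPM, against 4.78 CPM in the table and 341 CPM in the other left-out cells. Vtn (vitronectin) and Steap4, a metalloreductase, were at 889 and 441 CPM. Cspg4, the proteoglycan NG2 that antibodies to pericytes recognise, was found in only 7 cells at 31.5 CPM.

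Signalling and matrix genes were higher than in the table for some members of each list. Of the Notch pathway 2 of 8 genes were higher than in the table and 1 of 9 was higher than in the other left-out cells. For the PDGF, TGFβ and BMP pathways the counts were 5 of 17 and 2 of 18. The target gene Hes1 was at 556 CPM in mural cells, 89.5 in the table and 312 in the other left-out cells. Basement membrane genes were higher than in the table for 8 of 14 and higher than in the other left-out cells for 0 of 17. Sparc, a secreted collagen-binding protein, was at 2212 CPM, 438 CPM and 2540 CPM. Interstitial matrix genes gave 10 of 19 and 1 of 22, with a median of 3.78 against the table and -1.05 against the other left-out cells.

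The chemokine and cytokine list was higher than in the table for 6 of 11 genes, and 1 of 13 was higher than in the other left-out cells. Il6, an inflammatory cytokine, was at 3164 CPM in mural cells, 37.0 in the table and 257 in the other left-out cells. It varied from 0 to 12131 CPM over the 8 quiescent libraries, and it was below the other left-out cells in young LRC library a, at 160 against 267 CPM, and in aged nonLRC library b, at 0 against 177 CPM. Cxcl12, a chemokine that retains progenitors, was at 973, 9.51 and 394 CPM. Immediate early genes, which dissociation is known to raise, did not stand apart, with 1 of 21 higher than in the table, 0 of 21 higher than in the other left-out cells and medians of 0.04 and -0.25. Of 14 heat shock genes compared with the table, 0 were counted as higher and 1 was above the table at all, with a median of -1.13. The median against the other left-out cells was -0.31. The inducible chaperone Hspa1a was at 3402 CPM in mural cells and 5319 CPM in the table. Proteasome genes gave 0 of 31 in both comparisons, with medians of -0.00 and -0.32.

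Among genes of at least 200 CPM, the largest ratios to the table with 1 CPM added to both levels were those of Rgs5, a gene of the rule, and then Aspn and Mustn1. Aspn, a small matrix proteoglycan, and Mustn1, a gene of contractile and skeletal tissue, were at 861 and 990 CPM, with 10 and 20 UMIs in the table. Procr, the protein C receptor, was at 2044 CPM. Fabp4, a fatty acid carrier, and Cd36, a fatty acid transporter, were on the same list but came mostly from the cells with endothelial markers. Fabp4 was at 10987 CPM in those 15 and 836 CPM in the other 72, and Cd36 at 1466 and 206 CPM. The 10 smallest ratios to the table, listed among genes of at least 200 CPM in the table cells, all belonged to genes with a UMI in mural cells. Among them were Asb5 (56.0 against 2169 CPM), Gal, the galanin precursor (224 against 5158 CPM) and Myod1, the myogenic regulator (35 against 628 CPM). MuSC genes at 0 in mural cells, such as Pax7, were not on that list.

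The sort gate was read in RNA for its 5 genes. Vcam1 was at 147 CPM in mural cells, 1207 CPM in the table and 132 CPM in the other left-out cells. Itga7, which encodes the α7-integrin of the gate, was at 126, 49.8 and 35.2 CPM. Mural cells thus had more Itga7 RNA and less Vcam1 RNA than the table cells. Of the genes sorted against, Ptprc (CD45) was at 0 UMIs. Pecam1 (CD31) was at 161 CPM in all mural cells and 10.6 CPM without the 15 endothelial-marker cells, and Ly6a, which encodes Sca1, at 192 and 5.29 CPM. The table cells had 5.62 CPM of Pecam1 and 0.778 CPM of Ly6a.

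Within the 87 cells, 38 had more UMIs of Acta2 than of Rgs5 and 49 had more of Rgs5, with no ties. Of the more-Acta2 cells 14 had no Rgs5 UMI, and of the more-Rgs5 cells 17 had no Acta2 UMI. Median depths were 2859 and 2356 UMIs. Cells with at least 3 endothelial markers fell unevenly, with 2 on the Acta2 side and 13 on the Rgs5 side, so the list medians below, and the levels of most genes named, are also given without them. Both sides were present in each of the 4 a libraries, at 6 and 9 cells in aged LRC, 13 and 15 in aged nonLRC, 5 and 15 in young LRC and 3 and 7 in young nonLRC. The b libraries leaned the other way, at 5 and 2 cells in aged LRC, 1 and 0 in aged nonLRC, 1 and 0 in young LRC and 4 and 1 in young nonLRC.

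**Figure D3:**
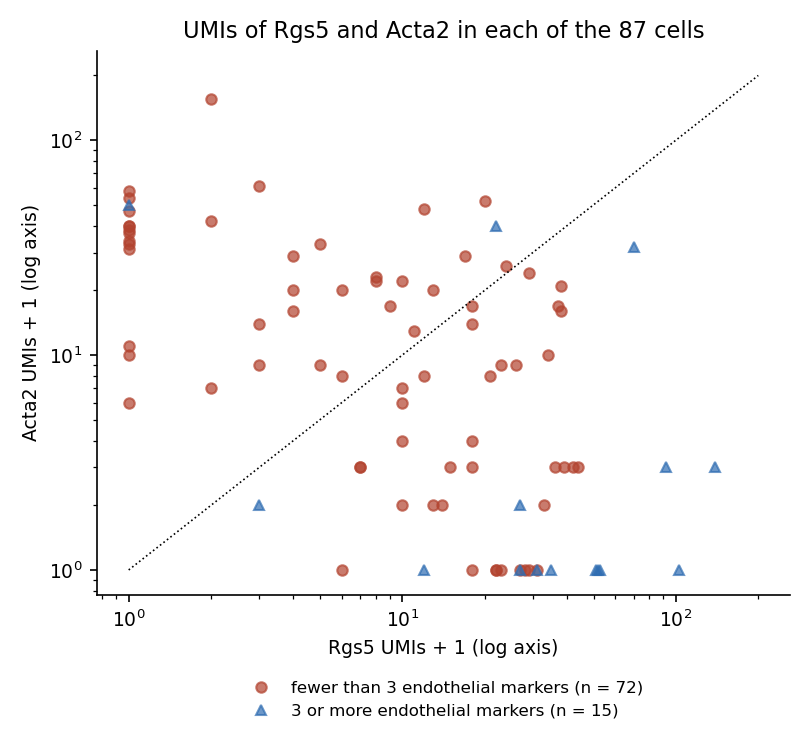
UMIs of Rgs5 + 1 (x axis) and of Acta2 + 1 (y axis), both on log scales, in each of the 87 mural cells, with the line of equal counts dotted and the 15 cells of at least 3 endothelial markers as triangles. The 38 cells above the line and the 49 below it form no separate clouds, and 13 of the 15 triangles lie below the line.

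The split used Acta2 and Rgs5, so genes that go with them had to follow, and its values are a description too. Of 2692 genes of at least 50 CPM, 7.65% were higher on the Acta2 side in all 4 libraries and 13% were higher on the Rgs5 side in all 4. Contractile genes were higher on the Acta2 side for 14 of 23 in all 4 libraries and for none on the Rgs5 side, with a median log2 difference of 1.74, or 1.39 without the endothelial-marker cells. Cnn1 was at 244 CPM in 14 more-Acta2 cells and had no UMI in any more-Rgs5 cell. Lmod1 was at 546 against 67.5 CPM and Tpm2 at 3398 against 442 CPM. Dstn, a destrin that severs actin filaments, was at 2379 against 442 CPM, and Myl9 at 5101 against 1251 CPM. Without the endothelial-marker cells Lmod1 was at 576 against 139 CPM, Tpm2 at 3380 against 642 CPM and Myl9 at 5298 against 2015 CPM. The order held for all of them, but Myl9 had UMIs in 36 of the 49 more-Rgs5 cells. Fibro-adipogenic markers were also higher on the Acta2 side for 5 of 7 genes, but for only 1 in all 4 libraries. Their median was 1.21, or 0.65 without the endothelial-marker cells. Interstitial matrix genes were higher there for 12 of 15, and for 1 in all 4 libraries, with medians of 1.06 and 0.47.

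On the Rgs5 side stood 9 of 22 other mural genes in all 4 libraries, and 2 of 22 were on the Acta2 side. Kcnj8 was at 632 CPM in more-Rgs5 cells and 163 CPM in more-Acta2 cells, Abcc9 at 429 and 122 CPM, and Steap4 at 687 and 114 CPM. The endothelin receptor Ednrb was at 552 and 65.2 CPM, and Col4a1, the type IV collagen of basement membranes, at 620 and 130 CPM. Without the 15 endothelial-marker cells the order was the same, as Kcnj8 was at 554 and 183 CPM, Steap4 at 1020 and 128 CPM, Ednrb at 554 and 63.9 CPM and Col4a1 at 680 and 128 CPM. Of the Notch pathway 4 of 6 genes were on the Rgs5 side in all 4 libraries, with a median of -1.22, or -1.30 without the endothelial-marker cells. Hes1, for one, was at 724 CPM on the Rgs5 side and 334 CPM on the Acta2 side. The receptor Notch3 was at 356 and 359 CPM over all cells, and at 441 and 356 CPM without the 15, and was higher on the Rgs5 side in 3 of 4 libraries. Pdgfrb was at 282 and 130 CPM, or 353 and 146 CPM without them, higher on the Rgs5 side in 3 of 4 libraries.

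Heat shock genes also followed the split, with 10 of 13 higher on the Rgs5 side in all 4 libraries and a median of -1.13, or -0.89 without the endothelial-marker cells. Hspa1a was at 5460 CPM in more-Rgs5 cells and 668 CPM in more-Acta2 cells. In young nonLRC library a it was at 12295 against 4998 CPM, and in the other 3 libraries at 3382 to 4217 against 0 to 299 CPM. The constitutive chaperone Hspa8 was at 6392 and 3064 CPM. Without the endothelial-marker cells Hspa1a was at 4558 and 722 CPM and Hspa8 at 5666 and 3206 CPM. Immediate early genes were on the Rgs5 side in all 4 libraries for 5 of 20 and proteasome genes for 0 of 23, with medians of -0.34 and 0.17. Without the endothelial-marker cells these were -0.07 and 0.17.

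**Figure D4:**
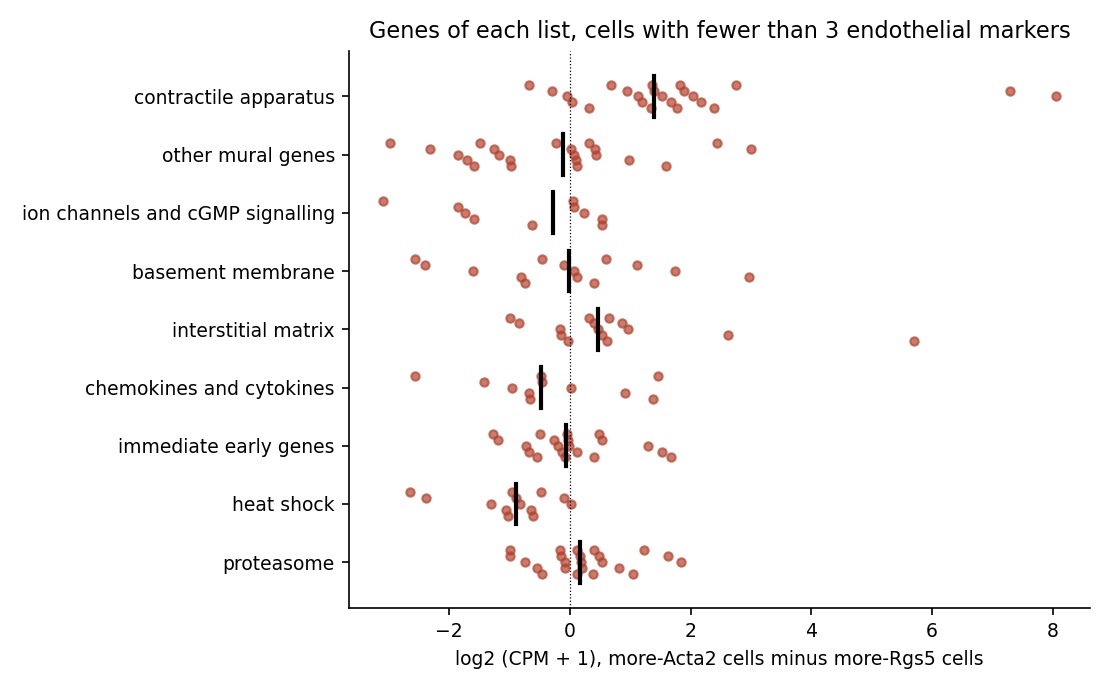
Difference of log2(CPM + 1) between more-Acta2 and more-Rgs5 cells (x axis) for each gene of 9 lists (y axis), in the 72 cells of fewer than 3 endothelial markers, without Acta2 and Rgs5, with 1 point per gene and the median as a bar. Contractile genes lie mostly to the right of 0, heat shock genes mostly to the left, and proteasome genes on both sides.

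Contractile genes are known targets of serum response factor, which binds the CArG box, so the RefSeq windows from 250 bases before to 50 bases after the start (GRCm38.p6) were searched on both strands for that box. Windows were matched for 26 of the 33 contractile and mural marker genes, and 4 of the 26 held a box, against 488 of 27025 genes with a window (1.81%). The stretches that hold it are shown because contractile genes stood together on the Acta2 side of the split, 5′ to 3′ on the gene's strand with the box in capitals. Myl9 lies at chr2:156775293-156775322 (+), Myl6 at chr10:128493040-128493069 (-), Vcl at chr14:20929161-20929190 (+), and the 2 overlapping stretches of Srf at chr17:46556225-46556254 and chr17:46556205-46556234 (-).
Myl9: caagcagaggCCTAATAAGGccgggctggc
Myl6: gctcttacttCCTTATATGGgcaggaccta
Vcl: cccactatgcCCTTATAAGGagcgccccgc
Srf, first: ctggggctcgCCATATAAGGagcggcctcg
Srf, second: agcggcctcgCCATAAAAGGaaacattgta
The first base of the box was 161 bases before the start in Myl9, 50 in Myl6, 227 in Vcl, and 82 and 62 in Srf, which encodes the factor itself. Myl6 is a light chain of myosin and Vcl encodes vinculin, which anchors actin filaments at adhesions. On the split Myl9 and Myl6 lay on the Acta2 side (log2 differences 2.03 and 1.73), and Vcl and Srf, with 48 and 12 UMIs, did not (-0.20 and -0.07). Such a match describes letters and not binding.

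Aged and young mural cells were compared gene by gene in libraries of at least 10 mural cells, which were the 4 a libraries, 1 of each age and label. Counts were summed per library and fitted with age and label as terms in edgeR's quasi-likelihood test, which left 1 residual degree of freedom, with Benjamini-Hochberg adjustment over the 935 genes tested. Of these, 16 were called for age (1.71%), 14 higher in aged cells (1.5%) and 2 lower (0.214%). Sample titles number the replicates of each age 1 and 2, but no barcode is tied to these numbers. LRC and nonLRC cells came from the same mice, so these p-values measure the spread between libraries and not between animals. The 4 a libraries, which alone carried hemoglobin RNA at 18.0 CPM or more, may come from 1 mouse of each age. The comparison would then be of 1 aged with 1 young mouse, and this was not tested. In other settings the call held in part or not at all. Of the 16 genes, 15 kept their call with no filter on low counts, 7 with DESeq2 and 5 with RLE factors. With 6 libraries of at least 5 cells edgeR called 0 genes (29 at an unadjusted p under 0.05). It also called 0 without the 2 cells with MuSC markers (64) and without the 15 cells with endothelial markers (57). The 16 genes had been called in these same 4 libraries, so their order there was largely set by the choice and is a description. Without those 15 cells, 14 of the 16 genes were higher and 1 was lower in both aged libraries than in both young ones. The log2 change of Ccl2 was then 4.70 and that of Ccl11 was 3.24.

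Of the chemokine and cytokine list 5 of 8 genes tested were called in these 4 libraries, all higher in aged cells. Ccl11 (eotaxin) was at 2802 CPM in aged LRC a and 4358 in aged nonLRC a, and at 254 and 204 CPM in young LRC a and young nonLRC a. Its log2 fold change was 3.83 (SE 0.40, edgeR adjusted p = 2.46e-05). Ccl2, which attracts monocytes, was at 5507, 4270, 481 and 272 CPM in the same order (log2 3.65, SE 0.39, edgeR adjusted p = 2.46e-05). For both genes the aged libraries lay well above the young ones. Ccl7, a related chemokine, was called with a log2 change of 5.08 (SE 0.64, edgeR adjusted p = 0.000114), Cxcl1, which attracts neutrophils, with 3.12 (SE 0.46, edgeR adjusted p = 0.000577) and Il6 with 3.08 (SE 0.63, edgeR adjusted p = 0.0125).

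The b libraries, each of fewer than 10 cells, read differently. In young nonLRC b (5 cells) Ccl11 was at 6174 CPM and in young LRC b (1 cell) at 2289 CPM, while aged LRC b (7 cells) had 4318 CPM and aged nonLRC b (1 cell) 0. Cxcl1 was at 20293 and 23346 CPM in the young b libraries and at 7366 and 214 CPM in the aged b libraries. Il6 was at 8403 and 12131 CPM against 5944 and 0 CPM. The young b libraries were thus at or above the aged a libraries for these 3 genes, except for Ccl11 in young LRC b. Over the 6 libraries of at least 5 cells 4 of the 16 genes kept the aged and young values apart, and over all 8 libraries 0 did. The genes had been called in 4 of these libraries, and the share over all genes tested was not computed.

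**Figure D5:**
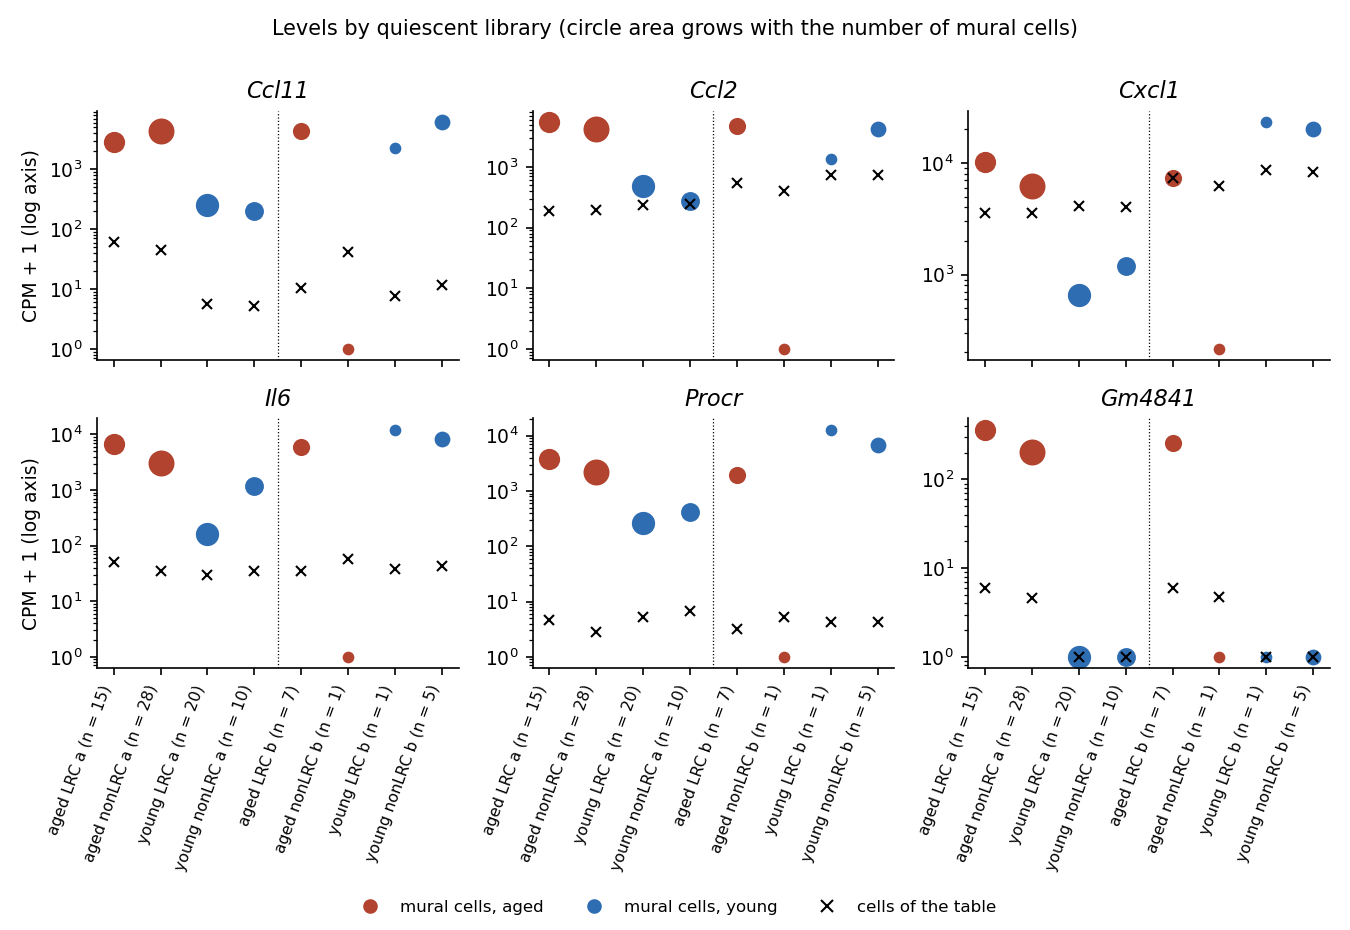
Level of 6 genes called for age, as CPM + 1 (y axis, log scale), in each quiescent library (x axis, with its number of mural cells), as circles for mural cells and crosses for table cells. Left of the dotted line the aged a libraries lie above the young a libraries for all 6, and right of it young nonLRC b is at least as high as the lower of the aged a libraries for 5 of them.

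The other 9 genes called higher were Procr, Mt2, Tnfaip6, Gm13889, Adamts4, Cstb, Gm4841, Ifi203 and Rgs16. Procr was at 3865 and 2185 CPM in the aged and 267 and 409 CPM in the young a libraries (log2 3.12, SE 0.38, edgeR adjusted p = 0.000108). Mt2, a metallothionein, changed by 2.38 on the log2 scale, Tnfaip6, a hyaluronan-binding protein of inflamed tissue, by 2.69, and Adamts4, an aggrecan-cleaving protease, by 1.85. Gm4841 had UMIs in 9 cells only, all aged. The 2 genes called lower were Aqp1, a water channel of the microvascular endothelium (log2 -2.28, SE 0.44, edgeR adjusted p = 0.00638), and Timp4, a metalloproteinase inhibitor (log2 -2.80, SE 0.58, edgeR adjusted p = 0.0128). Aqp1 was at 483 and 126 CPM in aged and 1242 and 1248 CPM in young a libraries. The endothelial list summed to 990 and 846 CPM in the aged and to 2430 and 2429 CPM in the young a libraries. Without the 15 endothelial-marker cells Aqp1 was at 0 and 67.4 CPM in the aged and 158 and 469 CPM in the young a libraries. Timp4 was then at 0 and 50.6 CPM against 0 and 42.7 CPM, so that its aged and young values overlapped.

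Of the other mural genes 1 of 17 tested was called for age, Gm13889 (log2 1.97, SE 0.33, edgeR adjusted p = 0.00224). The 6 rule genes, whose UMIs chose the cells, had a median log2 change of -0.19, which is a description. Contractile genes had a median of 0.45 (15 of 17 above 0) and heat shock genes -0.48 (3 of 13 above 0), beside 0.05 over all genes tested (518 of 935 above 0). In the table cells of the same 4 libraries 4 of the 16 called genes were higher in both aged libraries, 4 were lower and 8 overlapped. The share of all genes that part in this way was not computed, so these counts are a description. LRC and nonLRC mural cells differed in 0 of 935 genes (0.0%) by edgeR, with 42 at an unadjusted p under 0.05, and in 0 by DESeq2. Activated and quiescent mural cells could not be compared, since no activated library held one.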

How the data were processed

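The authors demultiplexed 10x 3′ v2 reads with bcl2fastq, aligned them with STAR, and counted UMIs with Cell Ranger per sample before aggregating the libraries (mm10). Versions are not given in the sources used here. They removed cells of over 10% mitochondrial UMIs or over 5000 genes, the ribosomal RNA genes Gm42418 and AY036118, and small clusters without myogenic markers. The deposited matrix holds raw counts per gene and barcode. The deposited table gives each retained cell's condition, UMI and gene number, and a mitochondrial fraction, which was used only to check the limit (largest share 9.99%). Here the rule was applied to the matrix, and leaving out the 2 ribosomal RNA genes (0.128% of UMIs) would give 86 members.

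Members and gene lists were chosen with earlier results of these data known. Counts were summed per library. Levels are CPM, and log2 ratios add 1 CPM. Genes were compared at a mean of at least 20 CPM in the 2 classes. Gene tests used edgeR 4.0.16 (filterByExpr, TMM) on libraries of at least 10 members, with DESeq2 1.42.0 as an alternative, in R 4.3.3, and shares used exact permutation within strata (scipy 1.17.1). On simulated data (977 genes, age comparison) 1.61% of genes changed by 1 on the log2 scale were called, 55.0% of those changed by 2 and 94.4% of those changed by 3. Of 784 unchanged genes 0 were called. The simulated libraries were independent and had 1 common spread for all genes. In the real young nonLRC library a 1 cell held 33.1% of the mural UMIs, which the simulation did not model. Its rates may thus not hold for these data. Named genes were those of the rule, the gate and the lists, the called genes, and the 15 largest ratios to each class. Added to these were the 10 smallest ratios to the table among genes of at least 200 CPM in the cells of the table. A fit with the mouse as a block, and comparisons with activated members, could not be made.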

Additional observations from a re-analysis of the deposited data

Results flagged for a closer look

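In 2 lists, 1 of the 4 libraries was far from the others. Immediate early genes summed to 19521 CPM in the mural cells of young nonLRC library a and to 14444 to 14943 CPM in the other 3, so that the gap was 0.902 of the range. Erythroid genes summed to 104998 CPM in young LRC library a and to 24.2 to 68.1 CPM in the others (gap 1.00 of the range, 0.999581 before rounding), and 1 cell carried nearly all of them. In all, 33 such groups were examined and 2 libraries were apart, where chance gives about 1 in 20 groups.

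For 4 genes called higher in aged mural cells, both aged libraries were lower than both young ones in the table cells of the same 4 libraries. The aged minus young log2 differences there were -0.31 for Ccl2, -0.70 for Procr, -0.20 for Cxcl1 and -0.21 for Adamts4. The difference between the cell classes was not tested, and how many of all genes lie in this order in the table cells was not computed.

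Cells with the same markers stood outside the comparison. Over a limit, 11 left-out barcodes had at least 3 of the 6 markers, all quiescent, with a median of 1566 UMIs and 12.3% mitochondrial UMIs. Among the cells of the table, 149 had at least 3, of which 146 were quiescent and 118 had at least 3 MuSC markers. Most of these had Notch3 (145), Acta2 (144) and Tagln (143), and few had Rgs5 (12), Pdgfrb (9) or Myh11 (3).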

How the results depend on the processing

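The shares kept their direction in every setting run. For age and label no setting but the rule of at least 2 of 6 markers could give a p under 0.05, so their side of the threshold in the others says nothing on stability. Leaving out 1 library moved the age difference to between 0.241 and 0.649 points and the label difference to between 0.117 and 0.525; the library that moved both most downward was aged LRC a. Without aged nonLRC a the age difference was 0.290, and the label difference was 0.525 without aged LRC b, 0.167 without aged nonLRC b and 0.214 without young LRC a. The counts of genes called for age and label depended on the processing, and over all settings 61 values of named genes' level ratios moved by more than the spread between libraries while 1005 did not. For age, against 16 called genes, edgeR gave 5 with RLE factors, 9 with at least 4 of 6 markers, 7 with age alone in the model, and 0 with libraries of at least 5 members, without the 2 members with MuSC markers, or without the 15 with endothelial markers; DESeq2 gave 7. Leaving out 1 library at a time, with age alone in the model, gave 18 to 56 calls: 39 without aged LRC a, 56 without aged nonLRC a, 18 without young LRC a and 28 without young nonLRC a. In the fits of these settings no fold change turned its direction among the called genes that were tested (13 of 16 without the endothelial-marker members, 15 with at least 4 markers, 16 in the others); Aqp1, Timp4 and Gm4841 were not tested without the endothelial-marker members. For label, the count of 0 became 4 with no filter on low counts, and 0 to 5 on leaving out 1 library with label alone in the model (5 without aged LRC a and 3 without young LRC a). With no filter the age call gave 24 of 10827 genes. Why the counts moved was not tested.

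Genes higher than in the table numbered 414 without the endothelial-marker members, against 538. Without those members the share at 18 h against 0 h differed by -0.761 points (exact permutation test, p = 0.00463, the smallest possible). Leaving out 1 library gave -0.688 to -1.10 points, with p at most 0.0247 (exact permutation test). The removal of endothelial-marker cells, the hemoglobin split, the one-term models and the use of all 16 libraries were chosen after seeing the data. No paired analysis was possible because the barcodes do not name the mouse. A minimum of 20 members left 2 libraries, in which age and label cannot be told apart. Few cells per library limit all gene comparisons.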

Other observations

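Gm4841, called for age in mural cells, showed the same restriction elsewhere. Of the cells of the table it had 51 UMIs in 29 of 7628 aged cells and 0 in 13927 young cells. The mural cells had 36 UMIs in aged and 0 in young libraries, and the other left-out cells 6 and 0. There were 2 mice of each age.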
